A study of Homo sapiens with 18 samples.

Results

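The region studied here is the MYC gene with the chromatin on either side of it, described in MOLM-13 cells. MOLM-13 is an established line grown from a human acute myeloid leukemia and carries a KMT2A rearrangement. Its members are the intervals, listed in the count files of 4 histone modifications, that lie on chromosome 8 in a window of 3.5 Mb (hg38), from 1.24 Mb upstream of the first MYC transcription start site (TSS) to 2.26 Mb downstream of it. They number 594 of 275391 intervals, with 237 for H3K27ac, 63 for H3K4me3, 243 for H3K4me1 and 51 for H3K27me3. The data are Cut&Tag libraries, in which an antibody directs the Tn5 transposase to tag DNA next to a modified histone. Cells received 100 nM PR-957 (ONX-0914), an inhibitor of the immunoproteasome subunit PSMB8, or DMSO as the diluent, and the sample labels give 72 h of treatment for both. A legend in the study's supplement gives a shorter time for the Cut&Tag data, so the duration is uncertain. Each modification had 2 DMSO and 2 PR-957 libraries, 16 in all, and 2 IgG samples were not analysed here. All libraries come from 1 cell line, and nothing says whether replicates were separate cultures, so p-values measure the spread between these libraries, which may be technical.

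MYC encodes a basic helix-loop-helix transcription factor that binds DNA as a dimer with MAX and drives ribosome production, metabolism and cell division. Its transcription depends on enhancers spread over a wide stretch of chromosome 8 with few other protein-coding genes, and different tissues use different ones: a distal blood enhancer cluster, far downstream within the CCDC26 gene, is known for driving MYC in hematopoietic stem cells and leukemia. H3K27ac marks active enhancers and promoters, H3K4me1 enhancers, H3K4me3 promoters, and H3K27me3 chromatin silenced by Polycomb.

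Libraries summed to between 9885836 and 14165777 counts for H3K27ac, and to 10032503 to 12047958 for H3K27me3, 15204186 to 30584219 for H3K4me1 and 30070119 to 44591150 for H3K4me3. Markers fit a myeloid leukemia line. An interval within 2 kb of a TSS was listed for 8 of 9 myeloid leukemia markers in H3K27ac and 7 of 9 in H3K4me3, with none for PTPRC in either and none for MPO in H3K4me3. Among 11 markers of erythroid, B, T and epithelial cells, 3 had one in H3K27ac and 5 in H3K4me3, where their median level was 0.792 CPM per kb against 6.35 for the myeloid markers. CPM is the usual depth-scaled count, here on the TMM-scaled library size, and levels of different intervals are compared only per kb. MOLM-13 is known to carry extra copies of chromosome 8, and levels were not corrected for copy number, so promoter levels are also given against chromosome 8 alone.

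Listed intervals overlap, so they were merged into loci, each represented by its interval with the highest mean count. The window held 80 H3K27ac loci, 17 H3K4me3 loci, 70 H3K4me1 loci and 28 H3K27me3 loci. H3K27ac and H3K4me1 lay almost entirely downstream of MYC. Of the 80 H3K27ac loci, 73 were downstream, 1 covered the MYC promoter and 6 were upstream. The downstream loci carried 91.1% to 91.8% of the summed H3K27ac signal of the window in the 4 libraries, the promoter 5.80% to 6.44% and the upstream loci 2.00% to 2.42%. H3K4me1 was distributed likewise, with 63 of 70 loci downstream. H3K4me3 was divided between the downstream loci, with 61.3% to 63.8% of its signal, and the MYC promoter, with 34.0% to 37.1%. H3K27me3 had the opposite layout, since 24 of its 28 loci were upstream and carried 85.6% to 90.1% of the signal. The 2 kinds of chromatin hardly met: 58 of the 80 H3K27ac loci overlapped an H3K4me1 locus and 20 an H3K4me3 locus, whereas 1 overlapped an H3K27me3 locus, and none of the 70 H3K4me1 loci did.

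**Figure D1:**
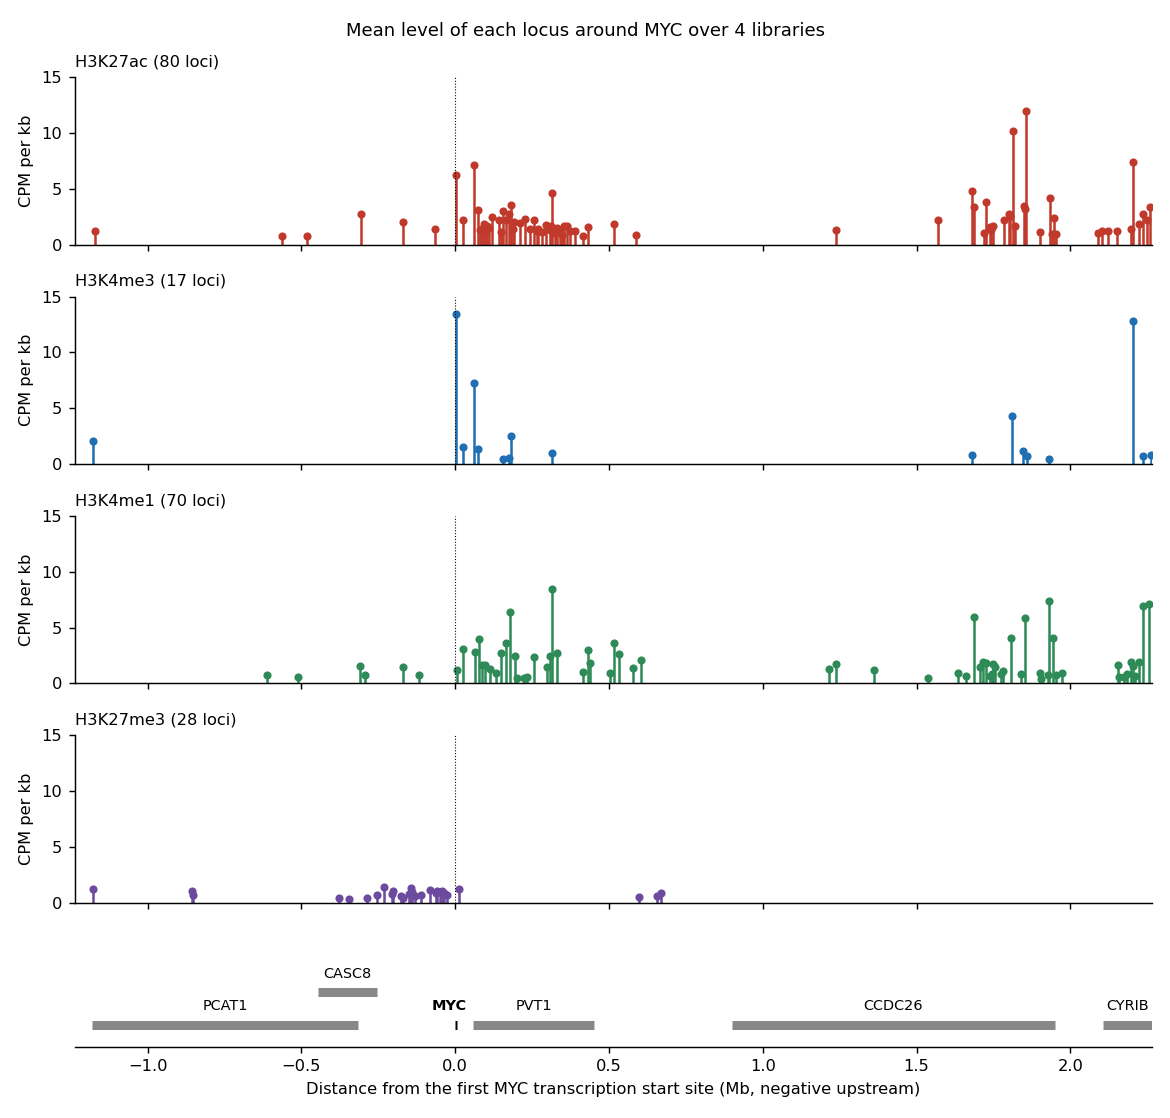
Mean level of every locus in CPM per kb over the 4 libraries of each modification, against its distance in Mb from the first MYC TSS; bars at the bottom show gene bodies. H3K27ac and H3K4me1 fill the PVT1 gene and the far end of CCDC26, H3K4me3 is highest at MYC (13.4 CPM per kb), and H3K27me3 lies mostly upstream of MYC at no more than 1.42 CPM per kb.

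A pair of stretches held most of the downstream signal. The first was PVT1, a long non-coding RNA gene just downstream of MYC (127794526 to 128187101), with 38 H3K27ac loci covering 187.6 kb. The second was CCDC26, also a long non-coding RNA gene (128634199 to 129683770), with 21 loci. The highest H3K27ac levels of the window were in CCDC26. The interval at 129590078 to 129594578, in an intron and 1851 kb from the nearest MYC TSS, had 12.0 CPM per kb, and that at 129540982 to 129553169, over a CCDC26 exon and TSS, had 10.2. The third was 7.43 CPM per kb at 129937763 to 129942221, over a TSS of CYRIB, which encodes a regulator of the actin cytoskeleton. The PVT1 promoter had 7.15 and MYC itself 6.25 CPM per kb. That MYC value is from the widest of 4 overlapping intervals. The narrower ones had 8.14 to 8.71 CPM per kb, so the place of MYC in this order depends on the interval used.

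H3K27ac loci differed by which other modifications covered them. The 20 that overlapped both H3K4me1 and H3K4me3 had a median level of 3.43 CPM per kb. A further 38 overlapped H3K4me1 without H3K4me3, at a median of 1.64, and 22 overlapped neither, at 1.24. The 3 widest H3K27ac loci of the window, of 22.2, 19.7 and 19.5 kb, all lay in PVT1, each wider than 99.6% of all 30670 H3K27ac loci. Their levels were 1.79 to 2.32 CPM per kb. PVT1 also held narrow loci and higher ones, such as its promoter interval at 7.15. H3K4me1 was highest at 128045550 to 128051549 within PVT1, over the microRNA gene MIR1207, with 8.43 CPM per kb. It followed with 7.41 at 129663310 to 129667898 in CCDC26 and 7.09 at 129979744 to 130004083 in CYRIB.

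The MYC promoter carried H3K4me3 and H3K27ac and no listed H3K27me3. H3K4me1 was listed only further into the gene, at the last TSS, at a level below the median of promoter intervals. MYC lies on the plus strand at 127735434 to 127742951, with 14 annotated TSSs, and its promoter was defined as 2 kb around them. The promoter interval of H3K4me3 ran from 127733352 to 127744028 and thus covered the whole gene. Its level of 13.4 CPM per kb was above that of 99.4% of 10557 promoter intervals of protein-coding genes, and above 88.5% of the 355 on chromosome 8. H3K27ac covered 127733323 to 127742793, and its 6.25 CPM per kb exceeded 75.2% of 10030 promoter intervals and 57.2% of the 376 on chromosome 8. For these 2 modifications the interval was the widest of 4 overlapping ones. The narrower ones had 14.4 to 18.9 CPM per kb for H3K4me3 and 8.14 to 8.71 for H3K27ac, so these ranks depend on interval width. H3K4me1 was represented by 127739007 to 127743743 at 1.16 CPM per kb, above 44.2% of 7397 promoter intervals and 37.8% of the 349 on chromosome 8. All 3 H3K4me1 promoter intervals began within the gene, at 127737799 or later, and none covered the first TSS. The nearest H3K27me3 interval, 127745245 to 127747578, began 6.17 kb beyond the last MYC TSS, past the end of the gene. CASC11, a long non-coding RNA gene that starts next to MYC, shares these promoter intervals and cannot be read separately.

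H3K27ac at the MYC promoter was 65.1 and 61.0 CPM in the DMSO libraries and 53.6 and 56.9 CPM in the PR-957 libraries. Both treated libraries lay below both controls. The log2 fold change was -0.19 ± 0.079 (SE, n = 2 per group), which did not pass (edgeR quasi-likelihood test, adjusted p = 0.462, unadjusted p = 0.016). All 4 overlapping promoter intervals gave log2 fold changes between -0.20 and -0.19, and none was called. Over all 74510 tested H3K27ac intervals, 0.238% were called in either direction. In bulk libraries, fewer cells carrying a modification cannot be told apart from less of it per cell.

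H3K4me3 at MYC was 146 CPM in each DMSO library and 135 and 146 CPM after PR-957. The groups differed by a log2 fold change of -0.055 ± 0.065 (SE; edgeR adjusted p = 0.914), less than its error. H3K4me1, read from the interval at the last TSS, was 5.28 and 6.52 CPM in DMSO and 5.90 and 4.35 CPM in PR-957, so the groups overlapped. The difference had a log2 fold change of -0.22 ± 0.19 (SE; edgeR adjusted p = 0.603), and of 0.0090 without PR-957 replicate 2. None of the 4 H3K4me3 and 3 H3K4me1 promoter intervals, which overlap within each modification, was called, and none had an unadjusted p under 0.05. Over all tested intervals 0.226% were called for H3K4me3 and 1.94% for H3K4me1, and 7.52% and 16.2% had such a p. For the MYC promoter DESeq2 made no call either.

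**Figure D2:**
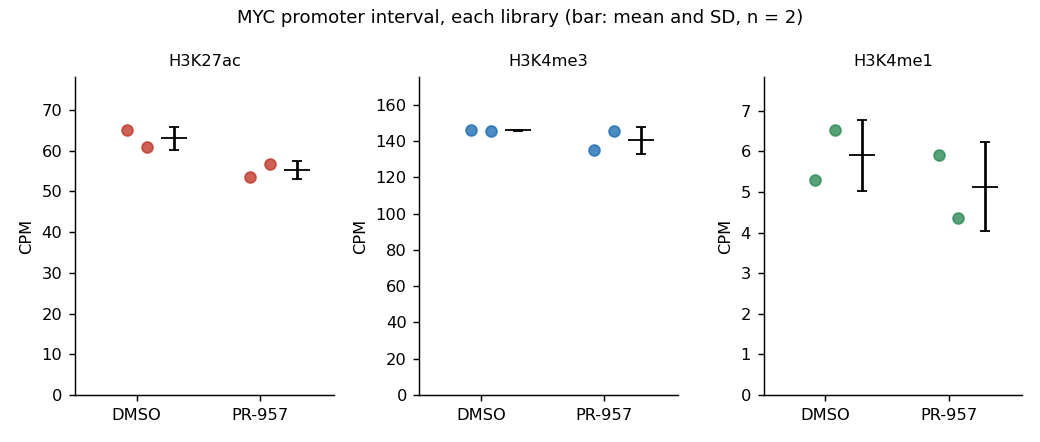
CPM of the MYC promoter interval in each library for 3 modifications, with the mean and SD of each group (n = 2). The H3K4me1 interval lies at the last MYC TSS, and the axes start at 0. For H3K27ac the PR-957 libraries (53.6 and 56.9) sit below the DMSO libraries (61.0 and 65.1), and for H3K4me3 and H3K4me1 the groups lie closer than their spread or overlap.

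Across the window, H3K27ac leaned lower in PR-957 cells by a small amount, and 1 of the 237 tested intervals was called. Their median log2 fold change was -0.16, against -0.015 for the 6517 tested intervals of the rest of chromosome 8 and 0.00 over all. Of the 237, 166 had a log2 fold change below 0, against 50% of all intervals, and 52 had an unadjusted p under 0.05, which is 21.9% against 8.01%. Both PR-957 libraries lay below both DMSO libraries in 98 intervals, or 41.4%, against 18.8% of all intervals and 21.7% on the rest of chromosome 8. The opposite, both treated libraries above both controls, held for 20 intervals, or 8.44%, against 18.1%. Since intervals overlap, these counts are not of independent regions. Counted once per locus, 52 of 80 were below 0, which is 65% against 46.5% of all 30621 tested loci. Both treated libraries lay below both controls in 27 loci, or 33.8%, against 16.3% of all loci, and above them in 10, or 12.5%, against 18.8%. These are descriptions of the window, and no test of it against other regions was made. Among 8 myeloid leukemia marker promoters tested for H3K27ac, the 2 of the self-renewal factors HOXA9 and MEIS1 were called lower and 6 did not pass, where 0.289% of all promoter intervals were called. The median log2 fold change of the 8 was -0.22, and that of 3 promoters of other cell types, none called, was 0.36. The part of these differences in the window's values was not tested.

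The called interval, 127937504 to 127952868, lies within PVT1, 198 kb downstream of MYC, and covers the start of LINC02912, a long non-coding RNA gene nested there. H3K27ac was 34.8 and 35.1 CPM in DMSO and 27.6 and 22.2 CPM in PR-957. The treated libraries were both lower, and they differed from each other more than the controls did. The log2 fold change was -0.50 ± 0.11 (SE; edgeR adjusted p = 0.0095), and it was the only one of the 12 overlapping intervals of its locus to pass, in a modification where 0.173% of all tested intervals were called lower. The call was lost without DMSO replicate 1 (edgeR adjusted p = 0.157), DMSO replicate 2 (0.143) or PR-957 replicate 2 (0.588), and in DESeq2 (0.074).

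The next smallest p-values were in the same direction. At 127986164 to 127994497, also in PVT1, H3K27ac was 21.0 and 21.9 CPM in DMSO and 18.1 and 12.6 CPM in PR-957 (log2 fold change -0.50 ± 0.15, SE; edgeR adjusted p = 0.140). At 129540982 to 129553169 in CCDC26, one of the highest intervals of the window, it was 134 and 132 CPM in DMSO and 118 and 114 CPM in PR-957 (log2 fold change -0.20 ± 0.055, SE; edgeR adjusted p = 0.085). In neither did the groups overlap, and neither passed. Without PR-957 replicate 1 the PVT1 interval did pass, at a log2 fold change of -0.76 (edgeR adjusted p = 0.028), and without PR-957 replicate 2 the log2 fold change was -0.24 (adjusted p = 0.769). The highest interval of all, 129590078 to 129594578, had 59.0 and 54.7 CPM in DMSO and 50.7 and 51.3 CPM in PR-957, with an edgeR adjusted p of 0.632.

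Summed over loci, H3K27ac was below the controls in both treated libraries over PVT1 and CCDC26, and not over the part of CYRIB inside the window. The 38 PVT1 loci summed to 434 and 429 CPM in DMSO and 386 and 373 CPM in PR-957, a ratio of 0.880. The 21 CCDC26 loci summed to 345 and 331 CPM in DMSO and 303 and 297 CPM in PR-957, a ratio of 0.888. For both genes the groups were apart, as they were for the MYC promoter at a ratio of 0.876. The 9 CYRIB loci gave 121 and 126 CPM in DMSO and 137 and 111 CPM in PR-957, so the treated libraries lay on either side of the controls. CYRIB runs past the end of the window to 130017504, and loci beyond the window are not in this sum. Its promoter interval with the highest H3K27ac count, at a log2 fold change of 0.022, lies there. The rest of chromosome 8, with 2849 loci, had a ratio of 0.986. With 2 libraries against 2, an exact two-sided permutation test cannot go below p = 0.333, so these sums carry no significance by themselves.

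**Figure D3:**
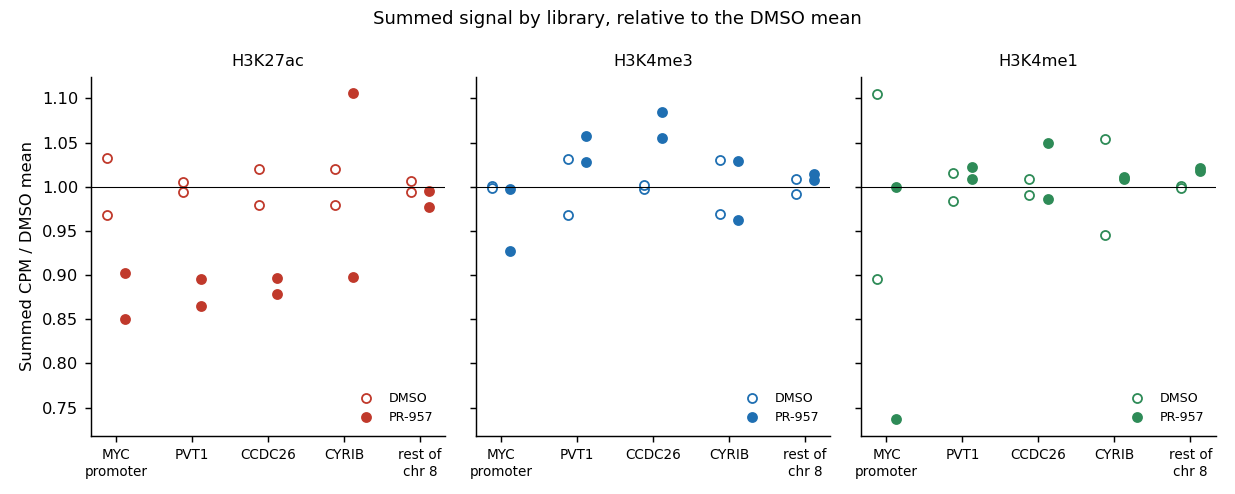
Summed CPM of the loci at the MYC promoter, in 3 gene bodies and on the rest of chromosome 8, divided by the DMSO mean, with 1 point per library (open, DMSO; filled, PR-957; the axis does not start at 0). For H3K27ac both PR-957 libraries lie below both DMSO libraries at the MYC promoter, PVT1 and CCDC26. They straddle the DMSO libraries at CYRIB, which is counted only up to the end of the window.

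Split by distance from MYC, summed H3K27ac was below both controls in both treated libraries in each of the 4 downstream classes. The ratio of PR-957 to DMSO was 0.947 for the 8 loci at 2 to 100 kb, 0.859 for the 31 loci at 100 to 500 kb, 0.661 for the 3 weak loci at 500 to 1500 kb and 0.929 for the 31 loci beyond 1500 kb. Upstream of MYC the classes went different ways. The 1 locus at 2 to 100 kb had a ratio of 0.897 and the 3 loci at 100 to 500 kb one of 0.963, both with overlapping groups. The 2 weak loci beyond 500 kb had 3.33 and 2.32 CPM in DMSO and 6.14 and 3.38 CPM in PR-957, a ratio of 1.68 with both treated libraries above both controls. Signal was also set against the MYC promoter within each library. The log2 ratio of downstream to promoter H3K27ac was 3.83 and 3.90 in DMSO and 3.99 and 3.82 in PR-957, a difference of 0.040 (exact permutation p = 1), so a shift of downstream against promoter signal was not detectable with 2 libraries per group. For H3K4me3 the same ratio was 0.74 and 0.72 in DMSO and 0.91 and 0.78 in PR-957, apart by 0.12 at the smallest possible p of 0.333, and by 0.054 to 0.18 without 1 library. For H3K4me1, the promoter signal is weak and lies at the last TSS. Its difference was 0.23 with overlapping groups (exact permutation p = 0.667), and 0.017 to 0.43 without 1 library.

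For H3K4me1 a few loci of PVT1 were called higher, while the window as a whole was near the rest of chromosome 8. Summed H3K4me1 had a PR-957 to DMSO ratio of 1.02 over PVT1 and 1.02 over the rest of chromosome 8. Of 243 tested window intervals, 11 were called, all higher in PR-957, while GC offsets gave 7 higher and 1 lower. Over all 108158 tested intervals 1.24% were called higher, and in the window the share called in either direction was 4.53%, near the 4.71% of the rest of chromosome 8. The window's median log2 fold change of 0.071 was also near that of the rest of chromosome 8, 0.080, while the median over all intervals was 0.00. Both treated libraries lay above both controls in 78 intervals, or 32.1%, against 23.5% of all intervals and 34.2% of the rest of chromosome 8, and below them in 34, or 14%, against 23.2%. Over all intervals 1.94% were called in either direction, 1341 higher and 758 lower, and the split was 1902 to 465 with library size alone, 1234 to 507 with cyclic loess offsets.

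The 11 intervals fell into 3 loci, each within PVT1. Strongest was the locus at 128166810 to 128170162, in an intron 428 kb downstream of MYC, where all 4 intervals passed. Its representing interval had 6.20 and 6.27 CPM in DMSO and 10.5 and 10.3 CPM in PR-957. Controls and treated libraries were far apart compared with their spread, and the log2 fold change was 0.74 ± 0.16 (SE; edgeR adjusted p = 0.0016). The neighboring locus at 128171972 to 128178048 had 9.15 and 9.03 CPM in DMSO and 13.5 and 12.2 CPM in PR-957, with a log2 fold change of 0.50 ± 0.14 (SE; edgeR adjusted p = 0.031). All 4 of its intervals were called. In the third locus, where the called intervals began 111 kb downstream of MYC and covered a PVT1 TSS, 3 of 7 passed, with log2 fold changes of 0.59 to 0.66, while the representing interval did not (edgeR adjusted p = 0.453).

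These H3K4me1 calls depended on tool and library. DESeq2 called none of the 11, with an adjusted p of 0.244 for the strongest, and edgeR called none of them without DMSO replicate 1, where the strongest kept a log2 fold change of 0.73 (adjusted p = 0.063). Leaving out DMSO replicate 2 gave 7 calls, and leaving out PR-957 replicate 1 gave 4. The 3 intervals of the third locus moved most, to log2 fold changes of 0.28 to 0.34 without DMSO replicate 1 and 0.94 to 1.04 when DMSO replicate 2 was left out. The locus at 128171972 had an adjusted p of 0.161 with GC offsets, and of 0.150 to 0.241 without any 1 of DMSO replicate 1, DMSO replicate 2 and PR-957 replicate 1. No interval near the promoter or in CCDC26 was called for H3K4me1. Closest was 129270045 to 129274689 in CCDC26, with 1.35 and 1.67 CPM in DMSO and 2.95 and 3.22 CPM in PR-957 (log2 fold change 1.04 ± 0.32, SE; edgeR adjusted p = 0.054), from at most 74 counts in a library. It passed with library size alone (adjusted p = 0.045) and with a mean count of at least 50 (0.028). At the 3 highest H3K4me1 loci the adjusted p was 0.556 or more.

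**Figure D4:**
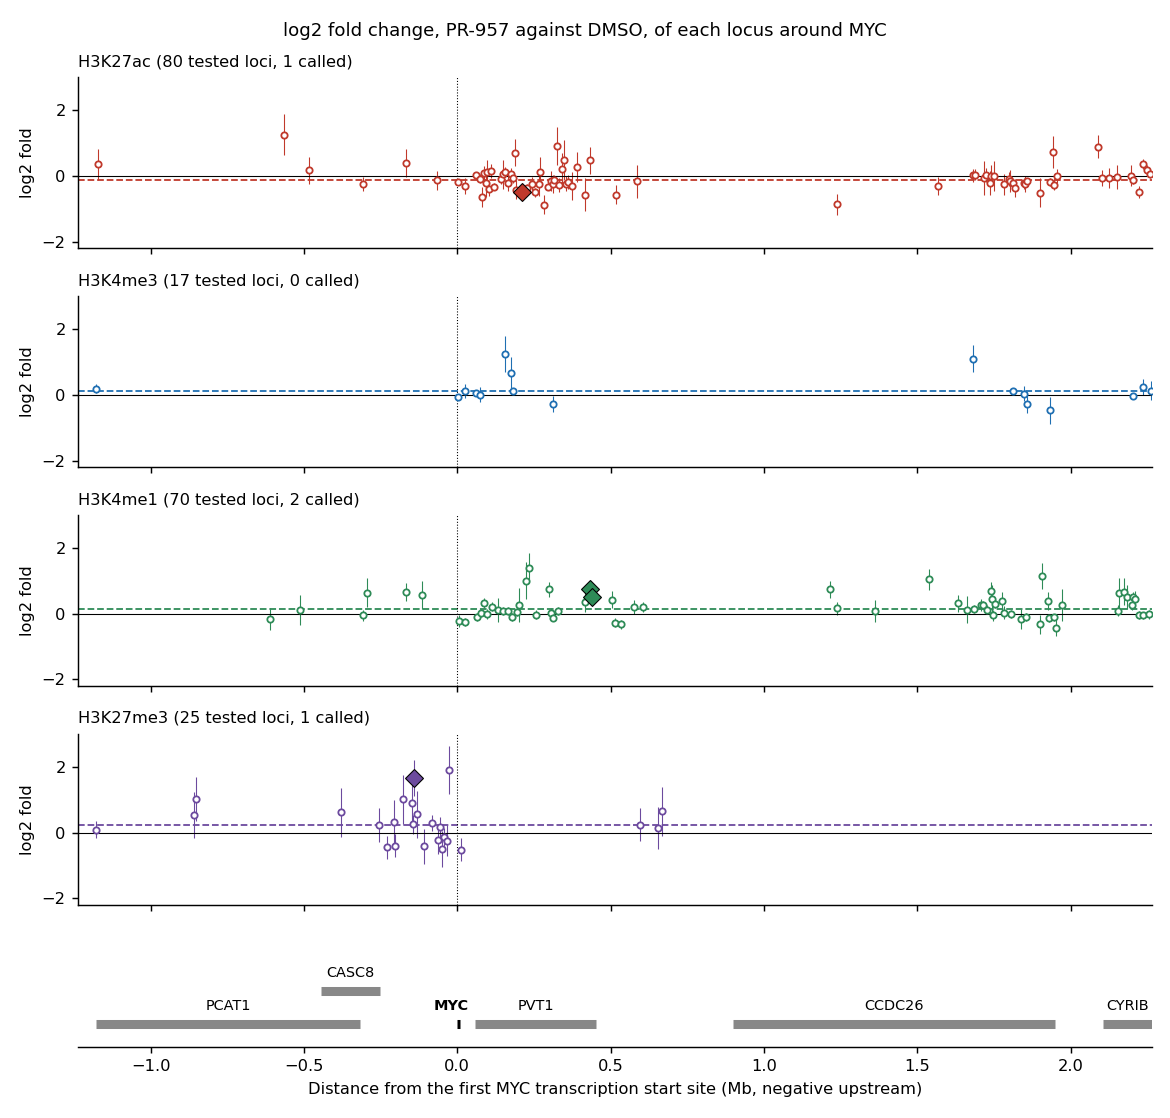
log2 fold change of PR-957 against DMSO for the representing interval of each tested locus, with its SE, against distance in Mb from the first MYC TSS; filled diamonds passed a false discovery rate of 0.05 and dashed lines are the median of the loci. For H3K27ac 52 of 80 loci lie below 0 and 1 was called; H3K4me1 has 2 called loci near the end of PVT1 and H3K27me3 1 upstream of MYC.

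H3K4me3 showed no called interval in the window. Of 63 tested intervals 3 had an unadjusted p under 0.05, against 7.52% of all intervals, and the lowest edgeR adjusted p was 0.347. DESeq2 also called 0. Over all 59229 tested intervals edgeR called 0.226%. The median log2 fold change was 0.077 in the window and 0.032 on the rest of chromosome 8. The smallest locus p-values came from weak intervals: at 129414859 to 129416389 in CCDC26, 0.716 and 0.865 CPM in DMSO and 1.48 and 1.92 CPM in PR-957 (edgeR adjusted p = 0.382), and at 127889521 to 127891100 in PVT1, at most 36 counts in a library. The wide locus at 129535278 to 129556000, where H3K27ac leaned lower, had 86.1 and 87.1 CPM of H3K4me3 in DMSO and 94.6 and 91.6 CPM in PR-957. They differed by a log2 fold change of 0.10 ± 0.067 (SE; edgeR adjusted p = 0.793). The CYRIB TSS, second to MYC with 12.8 CPM per kb, had a log2 fold change of -0.026, and the PVT1 promoter, next with 7.27, one of 0.051.

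H3K27me3 upstream of MYC was weak in both groups. The 28 loci had between 0.326 and 1.42 CPM per kb, with a median of 0.821 against 0.989 over all 13899 loci. Of 47 tested intervals 1 was called, higher in PR-957, and of all 31806 tested intervals 0.824% were called higher and 5.92% in either direction. It lay at 127593300 to 127595019, 140 kb upstream of MYC, with counts of 8 and 9 in DMSO and 24 and 38 in PR-957. That is 0.846 and 0.793 CPM against 2.23 and 2.94 CPM, a log2 fold change of 1.65 ± 0.54 (SE; edgeR adjusted p = 0.049). The call was lost without any 1 of the 4 libraries (adjusted p between 0.090 and 0.329) and with the replicate number as a block (0.104). A second weak interval, 127708593 to 127710137, was also tested through its PR-957 counts alone. It rested on 4 and 6 counts in DMSO and 20 and 23 in PR-957 and did not pass (edgeR adjusted p = 0.115). The locus closest to MYC, at 127746450 to 127749146, had 4.44 and 3.52 CPM in DMSO and 3.34 and 2.24 CPM in PR-957 (edgeR adjusted p = 0.524). Both treated libraries lay above both controls in 11 intervals, or 23.4%, against 21.6% of all, and below them in 9, or 19.1%, against 22.5%. The window's median log2 fold change was 0.12 and that of the rest of chromosome 8 -0.0061. Scaling by library size alone raised the median over all H3K27me3 intervals by 0.16 and turned the split of all calls from 262 higher and 1620 lower to 1521 and 698. With cyclic loess offsets it was 794 and 965.

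**Figure D5:**
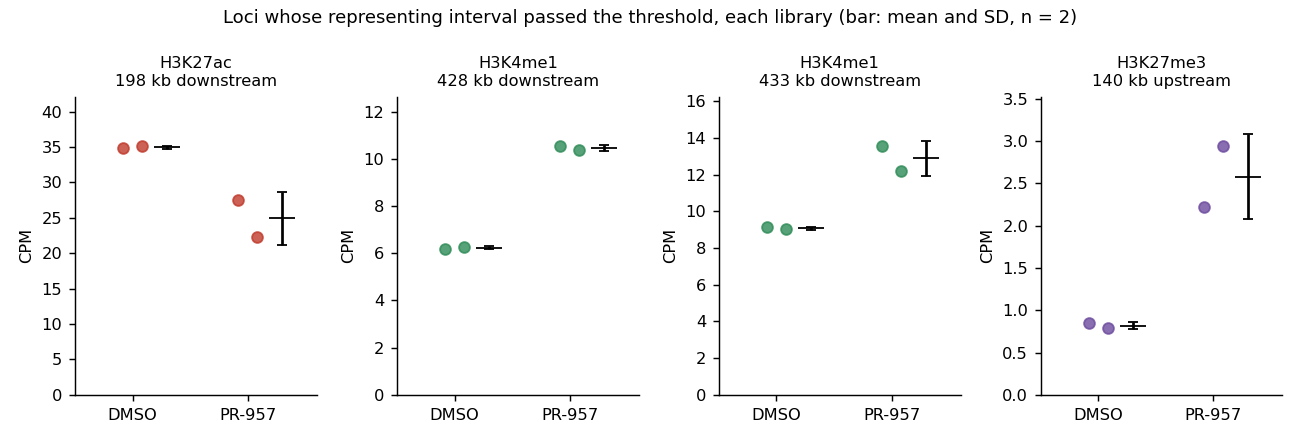
CPM in each library of the 4 loci whose representing interval passed a false discovery rate of 0.05, with the mean and SD of each group (n = 2); panels name the modification and the distance from the nearest MYC TSS, and each axis starts at 0. The groups do not overlap in any panel, but the loci were chosen by this threshold, so their separation is no further support. The H3K27me3 locus rests on the lowest level, under 3 CPM in every library.

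Promoters of the annotated neighbors differed in what they carried. LRATD2, the protein-coding gene at the upstream end of the window, shares its promoter with PCAT1, a long non-coding RNA gene. That promoter held H3K4me3 at 2.07 CPM per kb together with H3K27me3 at 1.26, and neither changed detectably (log2 fold changes of 0.18 and 0.086, edgeR adjusted p = 0.840 and 0.926). CASC8, a long non-coding RNA gene, had H3K27me3 alone, at 0.709 CPM per kb. POU5F1B, a retrogene related to the pluripotency factor OCT4, had no listed promoter interval of any modification. CASC11, next to MYC, shares the MYC promoter intervals described above. On the downstream side, GSDMC, which encodes a gasdermin, had no listed promoter interval either. The PVT1 promoter interval with the highest count had 43.9 ± 1.7 CPM of H3K27ac in DMSO and 44.7 ± 1.8 CPM in PR-957 (SD, n = 2), a log2 fold change of 0.033. PVT1 has further TSSs along the gene, and intervals within 2 kb of them went both ways. The log2 fold change was -0.50 ± 0.15 at 127986164 to 127994497 and 0.14 ± 0.22 (SE) at 127844128 to 127849230. Neither passed, and the second was less than its error. Of the 38 H3K27ac loci in PVT1, 24 had a log2 fold change below 0, against 46.5% of all loci. The 8 with an unadjusted edgeR p under 0.05 were all lower, and 8.01% of all intervals had such a p. The H3K27ac call given above also lies within the gene.

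The MYC network list comprises MYC, its paralogs MYCN and MYCL, their partner MAX, and MAX partners that compete with MYC, such as MXD1, MNT and MGA. It also holds MLX, the MAX-like factor of a parallel set of dimers, with its partners MLXIP and MLXIPL. An H3K27ac promoter interval was tested for 10 of its 13 genes, H3K4me3 for 11, H3K4me1 for 8 and H3K27me3 for 2, and edgeR called none for any modification. Those with an unadjusted p under 0.05 numbered 3, 3, 1 and 1, and for both H3K4me1 and H3K27me3 the gene was MLXIPL. MYC itself was among the 3 for H3K27ac. Over all tested intervals the shares with such a p were 8.01%, 7.52%, 16.2% and 15.6%. Of all tested promoter intervals, 0.289% were called for H3K27ac, 0.246% for H3K4me3, 2.11% for H3K4me1 and 10% for H3K27me3. The median log2 fold changes of the list were -0.018, -0.032, -0.21 and 0.25, and over all promoters 0.0040, -0.0061, -0.066 and -0.022. A few genes are given by value, chosen after these were seen. MAX had 11.0 ± 0.72 CPM of H3K27ac in DMSO and 9.96 ± 1.1 in PR-957 (edgeR adjusted p = 0.913). MXD1, a repressor that pairs with MAX, had 44.8 ± 2.6 CPM in DMSO and 52.9 ± 5.1 in PR-957 (SD, n = 2; edgeR adjusted p = 0.392). MYCN, a paralog of MYC, had no listed active promoter interval and carried H3K27me3 at 3.16 CPM per kb.

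For 24 genes known to be bound and raised by MYC, such as ribosome biogenesis and metabolic genes, H3K27ac was tested in 23, H3K4me3 in 22, H3K4me1 in 18 and H3K27me3 in 2. None was called by edgeR, in modifications where 0.289%, 0.246%, 2.11% and 10% of all tested promoter intervals were called. At such shares, no call in a list of this size says little about these genes. The median log2 fold changes of the list were -0.023, -0.037, -0.18 and -0.15, and over all promoters 0.0040, -0.0061, -0.066 and -0.022. An unadjusted p under 0.05 was found for 6 genes in H3K27ac, with log2 fold changes on both sides of 0, and for 1, 2 and 1 in the others. In the same order, the shares over all tested intervals were 8.01%, 7.52%, 16.2% and 15.6%. Again chosen after the values were seen, NPM1, which encodes a nucleolar chaperone, had 49.7 ± 2.3 CPM in DMSO and 39.8 ± 4.5 in PR-957 (edgeR adjusted p = 0.138), and ODC1, the rate-limiting enzyme of polyamine synthesis, 47.9 ± 4.5 and 56.0 ± 4.9 (SD, n = 2; adjusted p = 0.365).

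Of 7191 protein-coding genes with promoter intervals for H3K27ac, H3K4me3 and H3K4me1, TENT5A was the most like MYC by Euclidean distance over log2 CPM per kb in 12 libraries, at 0.839. RSPH3, ZBTB32, THBD and BNIP3L followed at 0.888 to 0.906. In TENT5A, which encodes a poly(A) polymerase, the levels were 6.54, 10.8 and 1.37 CPM per kb for the 3 modifications, against 6.25, 13.4 and 1.16 at MYC.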

How the data were processed

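The authors deposited whole-number counts of reads or fragments per interval for each library, without normalization, on 1 interval list per modification. Per the labels, processing used Trimmomatic 0.39, Bowtie2 2.2.5, Picard 2.27.1, SAMtools 1.7, SEACR 1.3 and deepTools 3.5.1 with hg38. The counter and the handling of duplicates are not given in the sources used here. Interval positions follow the files, which do not say from where starts are counted.

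Counts of each modification were filtered with filterByExpr (minimum count 10), scaled by TMM and compared with the quasi-likelihood test of edgeR 4.0.16 in R 4.3.3, adjusted by Benjamini-Hochberg over all tested intervals at 0.05, without a replicate block. SE is the log2 fold change over the square root of F. TSSs and genes came from GENCODE 44, and distances run from the nearest edge of an interval to the nearest MYC TSS. Python 3.11.15 was used for annotation. The test was tested on simulated data.

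Alternatives were median-of-ratios factors, library size, cyclic loess or GC offsets, DESeq2 1.42.0, no filter, a mean count of at least 50, a replicate block, 1 interval per locus, promoter windows of 1 and 5 kb, the widest interval per locus, and leaving out each library. Intervals named are those at the MYC promoter, those called, and per modification the 3 loci with the smallest p and the highest level. Neighboring genes, the 5 most similar promoters and the MYC lists were also set. Members and lists were chosen with earlier results of these data known. No 2 libraries of a modification held identical counts.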

Additional observations from a re-analysis of the deposited data

How the results depend on the processing

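The calls rested on few libraries and on the tool. DESeq2 called 0 window intervals for H3K27ac and 0 for H3K4me1, and 0 for H3K27me3, where it gave no adjusted p for the interval called by edgeR. With GC offsets H3K4me1 had 8 calls, 7 higher and 1 lower. With 1 interval per locus, H3K4me1 had 1 call and H3K27me3 0. For H3K27me3 the count was also 0 with cyclic loess offsets, with a mean count of at least 50, and with the replicate block. Leaving out 1 library gave 0 to 3 H3K27ac calls, with 3 without PR-957 replicate 1, 0 to 11 for H3K4me1, 0 for H3K27me3 and 0 for H3K4me3; an arm left with 1 library was assumed to vary like the other.

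The MYC promoter passed in no alternative. Without 1 library its log2 fold change ran from -0.24 to -0.14 for H3K27ac, from -0.11 to -0.0031 for H3K4me3 and from -0.43 to 0.0090 for H3K4me1. The median log2 fold change of the window was -0.13 for H3K27ac with GC offsets and -0.19 to -0.15 without 1 library. For H3K4me1 it was 0.12 with library size, 0.022 with GC offsets and 0.036 to 0.11 without 1 library, for H3K27me3 0.28 with library size and -0.027 to 0.14, and for H3K4me3 -0.057 to 0.18. Upstream against promoter H3K27ac changed from 0.26 to -0.046 with loci of a mean count of at least 50, and downstream against promoter ran from -0.041 to 0.12 without 1 library. The cause was not tested.

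With the replicate block, the MYC promoter stayed uncalled, and the window had 1 H3K27ac call, 0 for H3K4me3 and 11 for H3K4me1. Same-numbered libraries share only a number, with correlations of their deviations of -0.0089, 0.17, 0.0068 and -0.0069 for H3K27ac, H3K4me3, H3K4me1 and H3K27me3. Intervals of low count limit what could be called, most of all for H3K27me3.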
